A study of Mus musculus with 6 samples.

Results

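The levels of 10 genes were followed in B16-F3, a mouse melanoma cell line whose cells make melanin. They were listed as channels and transporters of the melanosome or the endolysosome, with Trpm1 added, and where their products lie was not examined. The 10 genes are Oca2, Slc45a2, Slc24a5, Slc24a4, Atp7a, Tpcn2, Mfsd12, Trpm1, Mcoln1 and Clcn7, chosen by name from a table of 22740 genes. All 10 lay among the 11921 genes that passed the filter on low counts. Cultures of this 1 line were sorted by flow cytometry on the light scatter of melanin into cells with much pigment (high-pigmented, HPC) and cells with little (low-pigmented, LPC), with 3 RNA libraries per population. The labels give neither genotypes nor agents beyond the culture medium, and do not say whether the replicates were separate cultures or sorts, so the p-values rest on a library-to-library spread that may be only technical. Reads were counted at transcript 3' ends, and levels are given in CPM, counts scaled to a common library size with TMM factors, which corrects for library composition.

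Melanin is made inside the melanosome, an organelle related to the lysosome, by tyrosinase, a copper enzyme that works poorly at acid pH. The proton pump (V-ATPase) acidifies the organelle, while anion channels and proton-coupled transporters move its pH towards neutral, copper has to be pumped into the secretory pathway to load the enzyme, and cysteine has to be brought in for the red-yellow form of the pigment. Inherited loss of Oca2 or Slc45a2 lightens the coat of mice and gives albinism in people, and loss of Atp7a gives the pale mottled mice.

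With group as the only term, edgeR called none of the 10 members. Trpm1, Oca2 and Slc24a4 passed in an alternative fit that compared libraries of equal replicate number, and all 3 were higher in HPC. Trpm1 encodes melastatin, a cation channel of melanocytes and retinal bipolar cells. Oca2 encodes the P protein, an anion transport protein that raises melanosome pH, and Slc24a4 encodes a potassium-dependent sodium-calcium exchanger. With edgeR on all 6 libraries they passed when the replicate number was taken into the fit as a block, which compares libraries of equal number (edgeR quasi-likelihood test, Benjamini-Hochberg adjusted p under 0.05 over all tested genes). That libraries of equal number belong together was taken from correlations in the data, not from the labels. Without the block, none of the 10 passed with edgeR or limma-voom and 1 with DESeq2, while 5 had an edgeR unadjusted p under 0.05, all higher in HPC, where 5.06% of all tested genes were higher at that p. With the block 3 of 10 were called, where 2.52% of all tested genes were called and 1.43% were called as higher in HPC. Without the block 0.0419% of genes were called, all of them lower in HPC. In bulk RNA, a smaller share of cells that express a gene and less RNA per cell cannot be told apart.

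Sequences upstream of the starts of these 3 genes are shown because edgeR called them with the block. They are the bases before each RefSeq start on GRCm38.p6, 250 for each start, read on the gene's strand. Capitals mark the E-boxes CATGTG and CACGTG on either strand, of the kind that MITF, TFE3 and TFEB, a family of melanocyte and lysosome transcription factors, can bind. RefSeq gives Trpm1 more than 1 start, and both windows are shown.
Trpm1, chr7:64153585-64153834, plus strand: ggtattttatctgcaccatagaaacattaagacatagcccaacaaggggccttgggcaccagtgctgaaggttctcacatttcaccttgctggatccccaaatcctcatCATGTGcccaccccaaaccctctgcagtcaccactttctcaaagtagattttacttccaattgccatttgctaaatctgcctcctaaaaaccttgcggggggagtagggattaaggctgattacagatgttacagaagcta
Trpm1, chr7:64185209-64185458, plus strand: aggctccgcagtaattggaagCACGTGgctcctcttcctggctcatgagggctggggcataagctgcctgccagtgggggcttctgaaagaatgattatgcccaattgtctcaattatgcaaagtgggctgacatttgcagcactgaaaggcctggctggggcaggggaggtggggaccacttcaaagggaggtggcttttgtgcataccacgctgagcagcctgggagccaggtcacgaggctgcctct
Oca2, chr7:56239509-56239758, plus strand: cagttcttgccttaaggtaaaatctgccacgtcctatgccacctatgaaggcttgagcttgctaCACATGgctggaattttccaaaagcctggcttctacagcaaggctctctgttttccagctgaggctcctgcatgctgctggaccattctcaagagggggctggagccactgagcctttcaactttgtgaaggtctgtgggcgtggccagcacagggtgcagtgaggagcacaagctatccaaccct
Slc24a4, chr12:102128477-102128726, plus strand: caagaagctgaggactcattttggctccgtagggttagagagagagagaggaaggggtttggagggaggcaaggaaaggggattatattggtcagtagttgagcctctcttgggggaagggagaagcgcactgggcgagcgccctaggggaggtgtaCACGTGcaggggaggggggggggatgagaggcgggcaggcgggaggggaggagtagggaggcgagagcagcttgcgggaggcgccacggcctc

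Over the full windows of the RefSeq table, which run from 250 bases before to 50 bases after a start, CATGTG or its reverse complement CACATG lay in 5 of the 11 windows of these genes and in 14.2% of all 32851 windows. The longer TCATGTG, which contains CATGTG and has the reverse complement CACATGA, lay in 3 of 11 and in 3.77% of all. CACGTG, which reads the same on both strands, lay in 5 of 11 and in 7.15% of all. The windows with TCATGTG belonged to Trpm1, Slc24a5 and Clcn7. The 11 windows are those of 9 members. Such a match describes letters and is not evidence of a bound site.

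Trpm1 stood at 215, 413 and 407 CPM in HPC replicates 1, 2 and 3, against 32.7, 66.4 and 141 CPM in LPC replicates 1, 2 and 3. All HPC libraries lay above all LPC libraries, and each group spread widely. HPC was 6.56-, 6.22- and 2.88-fold above LPC in the pairs numbered 1, 2 and 3. With the block the HPC level was 4.87 times that of LPC (log2 fold change 2.28, SE 0.23, edgeR adjusted p = 0.0077). Without the block the log2 fold change was 2.11 (SE 0.49, edgeR adjusted p = 0.21), and DESeq2 called it without the block (adjusted p = 0.046), where 1.02% of genes were called as higher in HPC. Leaving out LPC replicate 3, the highest of its group, widened the gap and gave an edgeR adjusted p of 0.035 without the block (log2 fold change 2.79). Without HPC replicate 1, 2 or 3 it did not pass in that fit (edgeR adjusted p = 0.35, 0.48 and 0.45). Nor did it pass without LPC replicate 1 (edgeR adjusted p = 0.14). Over all 19 fits run, the highest adjusted p of Trpm1 was 0.79, in an edgeR fit, and its log2 fold change ran from 1.73 to 2.79. The blocked fit lacking the pair numbered 2 called no gene at all, so the loss of this call there is not particular to Trpm1 (log2 fold change 2.10, edgeR adjusted p = 0.11).

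Oca2 stood at 110, 131 and 156 CPM in HPC replicates 1, 2 and 3, against 20.04, 50.1 and 98.8 CPM in LPC replicates 1, 2 and 3. The groups did not overlap, with LPC replicate 3 the nearest to the lowest HPC library. The excess of HPC was 5.48-, 2.60- and 1.58-fold in the pairs numbered 1, 2 and 3. With the block the Oca2 level in HPC was 2.75 times that of LPC (log2 fold change 1.46, SE 0.29, edgeR adjusted p = 0.047), and without it the log2 fold change was 1.23 (SE 0.46, adjusted p = 0.48). DESeq2 with the block did not call it (adjusted p = 0.054), and limma-voom with the block did (adjusted p = 0.042), where 1.39% of genes were called as higher in HPC. Without the pair numbered 2, where the blocked edgeR fit called no gene at all, the adjusted p of Oca2 was 0.31. The unblocked log2 fold change dropped to 0.83 when LPC replicate 1 was left out, and was 1.90 when LPC replicate 3 was left out.

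Slc24a4 stood at 15.2, 54.3 and 36.2 CPM in HPC replicates 1, 2 and 3, against 9.65, 22.6 and 19.4 CPM in LPC replicates 1, 2 and 3. Here the groups overlapped, since HPC replicate 1 lay below LPC replicates 2 and 3, yet each HPC library lay above the LPC library of its own number. The pair ratios were 1.57, 2.40 and 1.87. With the block the HPC level was 1.95 times that of LPC (log2 fold change 0.96, SE 0.14, edgeR adjusted p = 0.024), against a log2 fold change of 1.03 with an SE of 0.46 and an edgeR adjusted p of 0.54 without it. DESeq2 with the block gave an adjusted p of 2.3e-05, where 2.75% of genes were called as higher in HPC. Without the pair numbered 2, where the blocked edgeR fit called no gene at all, the log2 fold change was 0.78 (adjusted p = 0.27). Without the block, the log2 fold change was 0.58 without HPC replicate 2.

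**Figure D1:**
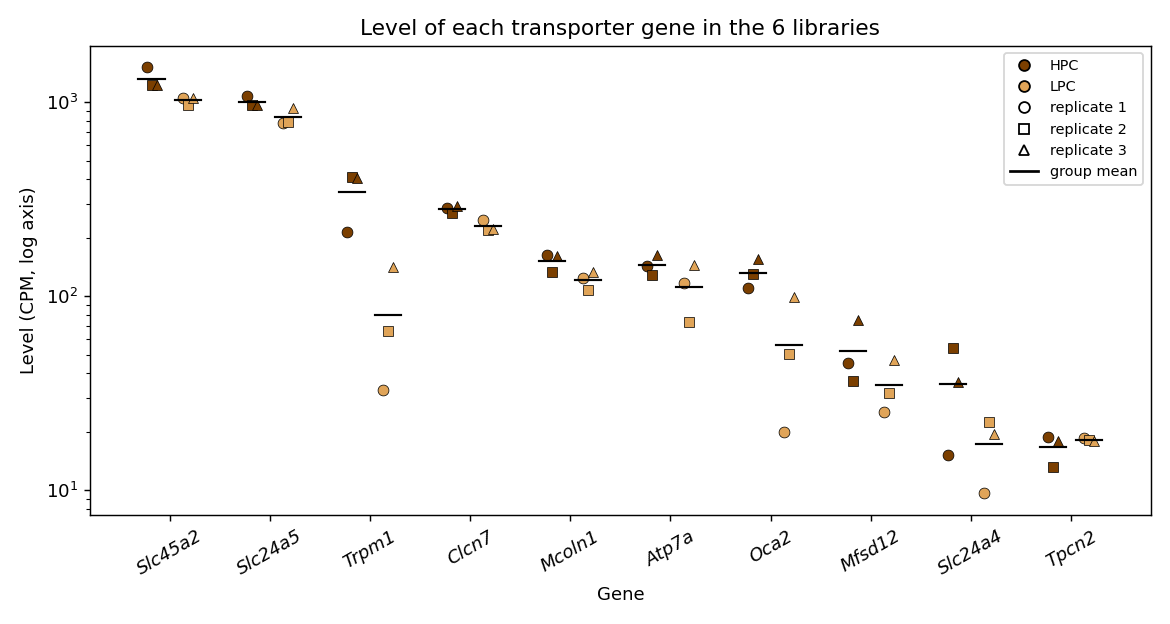
Level of each of the 10 genes in CPM on a log axis, with 3 HPC libraries left and 3 LPC libraries right for each gene, marker shapes for the replicate number and a line at each group mean. Trpm1 and Oca2 show the widest separation of means, with the LPC libraries running from 32.7 to 141 CPM for Trpm1 and from 20.04 to 98.8 CPM for Oca2, while the libraries of Slc45a2, Slc24a5, Clcn7 and Mcoln1 lie close together.

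Since 3' end counts do not grow with transcript length, mean CPM was set side by side between genes. How 3' ends and overlapping genes were counted is not given in the sources used here, so the order is a rough guide. In HPC the order was Slc45a2 (1321), Slc24a5 (1004), Trpm1 (345), Clcn7 (281), Mcoln1 (153), Atp7a (146), Oca2 (132), Mfsd12 (52.5), Slc24a4 (35.2) and Tpcn2 (16.7). Neighbours whose HPC libraries overlapped were Trpm1 with Clcn7, Mcoln1 with Atp7a, Atp7a with Oca2, Mfsd12 with Slc24a4, and Slc24a4 with Tpcn2. In LPC, Trpm1 (80.2) and Oca2 (56.3) stood below Clcn7 (230), Mcoln1 (121) and Atp7a (112) in mean CPM.

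The other genes of melanosome pH and ion exchange differed by less. Slc45a2, whose product is a proton-coupled sugar transporter of the melanosome, had the highest mean level of the 10. It stood at 1516, 1221 and 1225 CPM in HPC replicates 1, 2 and 3, against 1050, 973 and 1050 CPM in LPC replicates 1, 2 and 3. The groups did not overlap, at 1321 ± 169 CPM in HPC, against 1024 ± 44.5 CPM in LPC (SD, n = 3 each). It did not pass with edgeR with the block (1.28-fold, log2 fold change 0.36, SE 0.10, adjusted p = 0.13) or without it (adjusted p = 0.42), and lay at the threshold with DESeq2 and the block (adjusted p = 0.0499).

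Slc24a5 encodes a potassium-dependent sodium-calcium exchanger of pigment cells, a paralog of the Slc24a4 product, and variants of it affect skin colour in people and coat colour in mice. Its levels were 1073, 966 and 973 CPM in HPC replicates 1, 2 and 3, against 779, 794 and 939 CPM in LPC replicates 1, 2 and 3. HPC lay above LPC without overlap, but the pair numbered 3 differed by 1.04-fold only. The log2 fold change with the block was 0.26 with a 95% interval from 0.011 to 0.52 (edgeR adjusted p = 0.25). Its interval lies below that of its paralog Slc24a4 (0.64 to 1.29), a difference between the 2 genes that was not tested. The last exon of Slc24a5 overlaps Myef2 on the opposite strand, and whether strand was used in counting is not given in the sources used here. Myef2 stood at 92.7 ± 9.56 CPM in HPC, against 96.3 ± 15.9 CPM in LPC.

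Clcn7 encodes the chloride-proton exchanger of lysosomes. It stood at 285, 267 and 290 CPM in HPC replicates 1, 2 and 3, against 248, 221 and 222 CPM in LPC replicates 1, 2 and 3, again without overlap. Its log2 fold change was 0.29 with the block (SE 0.089, edgeR adjusted p = 0.15) and 0.29 without it (adjusted p = 0.46). Mcoln1 encodes TRPML1, a lysosomal channel that releases calcium and iron, and stood at 163, 134 and 161 CPM in HPC replicates 1, 2 and 3, against 124, 107 and 133 CPM in LPC replicates 1, 2 and 3. The lowest HPC library and the highest LPC library were almost level. Its log2 fold change was 0.33 with the block (SE 0.088, edgeR adjusted p = 0.10).

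Tpcn2 encodes TPC2, a cation channel of lysosomes and melanosomes, and was the member with a negative log2 fold change. It stood at 18.8, 13.3 and 17.9 CPM in HPC replicates 1, 2 and 3, against 18.6, 18.2 and 17.9 CPM in LPC replicates 1, 2 and 3. The groups overlapped, and HPC replicate 2 alone lay apart. The log2 fold change with the block was -0.15, with a 95% interval from -0.47 to 0.18 (edgeR adjusted p = 0.62), and its sign turned when HPC replicate 2 or the pair numbered 2 was left out.

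The copper and cysteine genes were more variable. Atp7a, the copper pump that supplies tyrosinase, stood at 144, 129 and 164 CPM in HPC replicates 1, 2 and 3, against 117, 73.4 and 145 CPM in LPC replicates 1, 2 and 3. The groups overlapped, LPC replicate 2 was lowest, and the pair ratios were 1.23, 1.76 and 1.13. The log2 fold change with the block was 0.43 (SE 0.13, edgeR adjusted p = 0.15). Mfsd12, needed for the import of cysteine into melanosomes and lysosomes, stood at 45.4, 36.8 and 75.4 CPM in HPC replicates 1, 2 and 3, against 25.4, 31.7 and 47.2 CPM in LPC replicates 1, 2 and 3. LPC replicate 3 lay above HPC replicates 1 and 2, so the groups overlapped, and HPC replicate 3 was highest. The log2 fold change with the block was 0.57 (SE 0.13), not past the threshold with edgeR (adjusted p = 0.075) but past it with DESeq2 and the block (adjusted p = 0.016). The last exon of Mfsd12 overlaps Fzr1 and 4930404N11Rik on the opposite strand, and Fzr1 stood at 80.3 ± 2.96 CPM in HPC, against 61.3 ± 8.25 CPM in LPC.

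**Figure D2:**
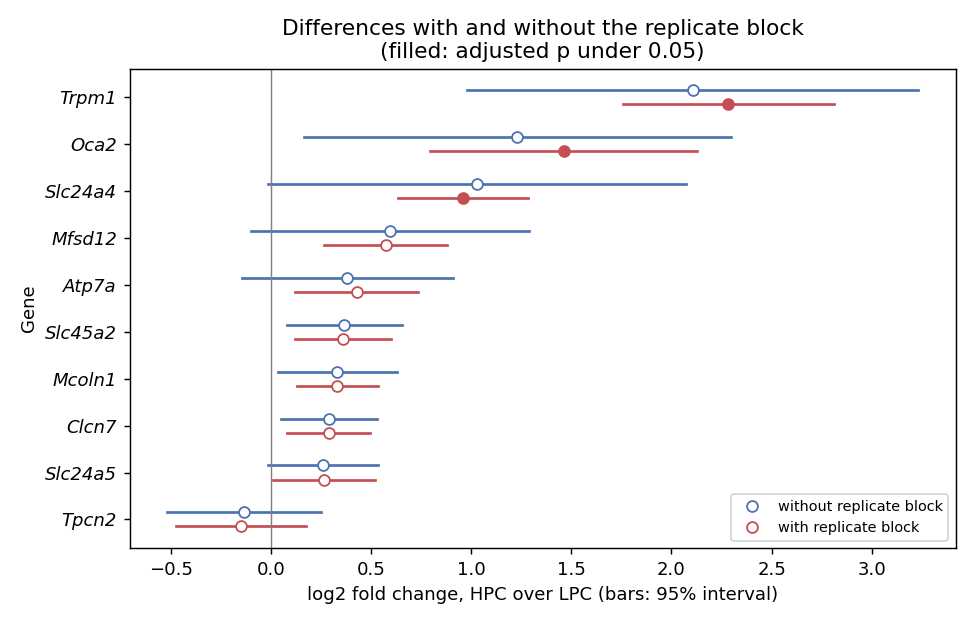
log2 fold change of HPC over LPC for each gene with its 95% interval, from the edgeR fits without and with the replicate block, filled where the adjusted p was under 0.05. The estimates of both fits lie close together, the intervals are narrower with the block, and Trpm1, Oca2 and Slc24a4 are filled in the blocked fit, at 2.28, 1.46 and 0.96.

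Of the 10 genes, 9 had a positive log2 fold change, where 48.2% of all tested genes had one without the block. These 9 were higher in HPC in all 3 pairs, where 19.6% of all tested genes were. The groups did not overlap, with HPC higher, for 6 of the 10, namely Trpm1, Oca2, Slc45a2, Slc24a5, Mcoln1 and Clcn7, where 7.16% of all tested genes showed this. In the blocked fit the median log2 fold change was 0.39 over the members and -0.0060 over all tested genes. In the pairs numbered 1, 2 and 3 the members had a median log2 CPM difference of 0.50, 0.32 and 0.33. Together the 10 genes took 0.352%, 0.336% and 0.350% of the counts in HPC replicates 1, 2 and 3, against 0.244%, 0.237% and 0.282% in LPC replicates 1, 2 and 3. The members and lists were chosen with earlier results of these data known.

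**Figure D3:**
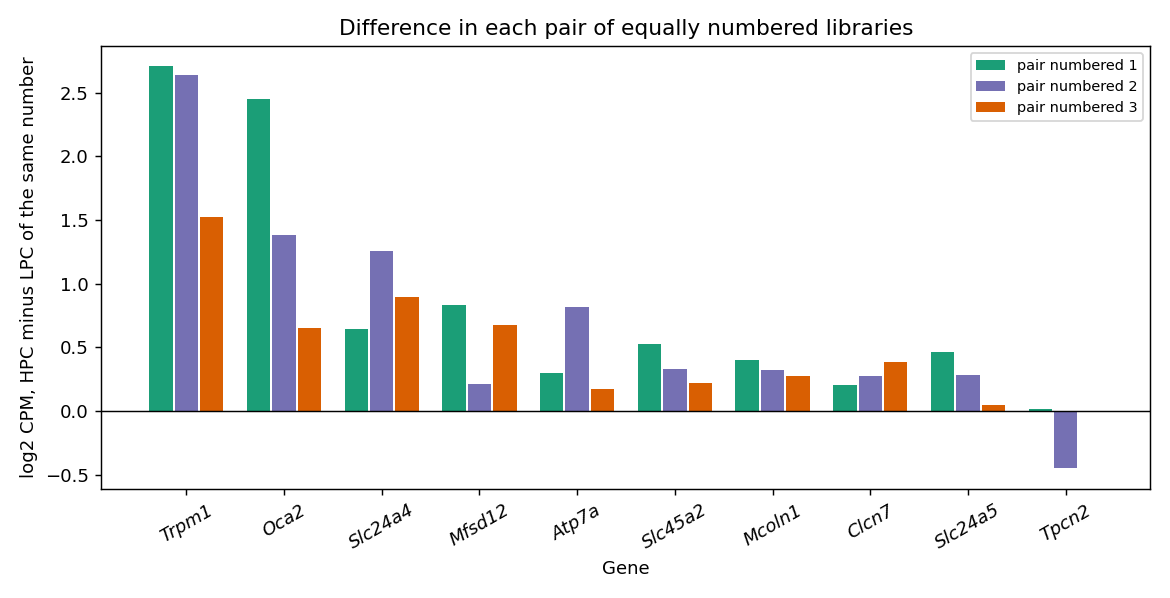
Difference in log2 CPM, HPC minus LPC, in each pair of equally numbered libraries, for each gene. The bars of 9 genes are above 0 in all 3 pairs, the pair numbered 3 has the smallest difference for Trpm1 (1.52) and Oca2 (0.66), and Tpcn2 is at 0.014, -0.45 and -0.0040 in the pairs numbered 1, 2 and 3.

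The members did not share 1 profile over the libraries. Likeness was measured as the root mean square difference between centred log2 CPM profiles over the 6 libraries, where a smaller value means a closer profile. Among the members Trpm1 and Oca2 differed by 0.45, and both were lowest in LPC replicate 1, while Trpm1 and Slc24a4 differed by 0.83. Slc45a2, Slc24a5, Mcoln1 and Clcn7 lay within 0.11 to 0.13 of one another, with centred values between -0.34 and 0.39. Genes that vary so little lie close by this measure, so the small distances are not evidence of a shared profile. The root mean square of the centred profile itself was 1.33 for Trpm1, 1.01 for Oca2 and 0.81 for Slc24a4. Over 9389 other genes with a mean of at least 10 CPM, the closest to Trpm1 were Tinagl1 (0.24), Tbc1d2 (0.30) and Oca2 itself. The closest to Oca2 were Mgll (0.21), Ptgds (0.27) and Tbc1d2 (0.31), and the closest to Slc24a4 were Fez1 (0.31), Sema6d (0.39) and C1s (0.42). Tbc1d2, a gene of a Rab GTPase-activating protein, stood at 17.0 ± 2.81 CPM in HPC, against 4.75 ± 2.40 CPM in LPC, and Mgll, the monoglyceride lipase gene, at 663 ± 234 and 296 ± 188 CPM in HPC and in LPC.

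Tyr, the tyrosinase gene, had its lowest level in another LPC library than Trpm1 and Oca2. It stood at 908, 855 and 994 CPM in HPC replicates 1, 2 and 3, against 261, 62.2 and 238 CPM in LPC replicates 1, 2 and 3. Its lowest library was LPC replicate 2, as it was for 4 of the 10 members (Slc45a2, Atp7a, Mcoln1 and Clcn7). Trpm1, Oca2, Slc24a4, Slc24a5 and Mfsd12 were lowest in LPC replicate 1, and Tpcn2 in HPC replicate 2 (13.3 CPM). With the block the log2 fold change of Tyr was 2.52 (SE 0.35, edgeR adjusted p = 0.021). The lineage factor Mitf, which drives many pigment genes, was at 547 ± 62.9 CPM in HPC, against 529 ± 76.9 CPM in LPC, and of 5 tested MiT factors and lineage regulators, Sox10 and Mc1r among them with blocked log2 fold changes of -0.061 and -0.18, none was called with or without the block (median -0.061). The blocked edgeR fit called 2.52% of all tested genes.

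The other endolysosomal channels and exchangers had 17 tested genes, of which 1 was called as higher in HPC in the blocked fit and 0 as lower. Of all tested genes, that fit called 1.43% as higher and 1.1% as lower. Mcoln3, which encodes TRPML3, a calcium channel of endosomes related to the Mcoln1 product, stood at 147, 97.1 and 107 CPM in HPC replicates 1, 2 and 3, against 70.4, 64.1 and 73.5 CPM in LPC replicates 1, 2 and 3. The groups did not overlap, and HPC replicate 1 was highest. It was 1.67-fold higher with the block (log2 fold change 0.74, SE 0.12, edgeR adjusted p = 0.029), DESeq2 called it without the block as well (adjusted p = 0.0049), and edgeR did not (adjusted p = 0.19). Without the pair numbered 2, where the blocked edgeR fit called no gene at all, the adjusted p of Mcoln3 was 0.24. Mcoln2, its other paralog, was chosen after its values were seen. It stood at 17.7 ± 2.55 CPM in HPC, against 23.9 ± 3.03 CPM in LPC without passing (log2 fold change with the block -0.44, edgeR adjusted p = 0.16). The groups of Mcoln2 did not overlap, with HPC lower, where 7.18% of all tested genes showed this. Ostm1, the partner of the Clcn7 product, was at 108 ± 9.96 CPM in HPC, against 95.5 ± 11.2 CPM in LPC (log2 fold change with the block 0.18, edgeR adjusted p = 0.38). Clcn3, a chloride-proton exchanger gene, and P2rx4, an ATP-gated channel gene, did not pass either, with blocked log2 fold changes of 0.15 and 0.048. Over the list, the median was 0.063 in the blocked fit.

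None of the 17 tested V-ATPase subunit genes was called by edgeR with or without the block, where 2.52% of all tested genes were called with it. Of the 17, 16 had a blocked log2 fold change above 0 (median 0.12), where 48.9% of all tested genes had one. Among the most abundant, Atp6v1b2 stood at 618 ± 61.5 CPM in HPC, against 488 ± 16.9 CPM in LPC (edgeR adjusted p with the block 0.15), Atp6v0a1 at 502 ± 65.0 and 401 ± 60.8 CPM in HPC and in LPC, and Atp6v1e1 at 498 ± 95.02 and 480 ± 33.1 CPM. Atp6v1a, the catalytic subunit gene, was chosen after its values were seen because DESeq2 called it without the block (adjusted p = 0.023). It stood at 498 ± 4.59 CPM in HPC, against 388 ± 22.3 CPM in LPC, and edgeR gave an adjusted p of 0.093 with the block.

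Of 15 tested genes of copper handling, none was called by edgeR with or without the block, where 2.52% of all tested genes were called with it. Their blocked log2 fold changes had a median of 0.094. The metallothionein genes Mt1 and Mt2, whose products bind zinc and copper, stood at 408 ± 55.7 and 226 ± 25.1 CPM in HPC and at 479 ± 49.8 and 289 ± 24.4 CPM in LPC. Their log2 fold changes with the block were -0.23 and -0.36 (edgeR adjusted p = 0.36 and 0.17). For Mt2 the HPC libraries all lay below the LPC libraries, while the groups of Mt1 overlapped. Sod1 did not pass (log2 fold change with the block -0.15). Steap3 and Atp7b were chosen after their values were seen, and both were higher in HPC in all 3 pairs without passing with edgeR. Steap3, a gene of an iron and copper reductase, stood at 108, 91.1 and 87.2 CPM in HPC replicates 1, 2 and 3, against 71.7, 72.5 and 67.6 CPM in LPC replicates 1, 2 and 3, without overlap. Its blocked log2 fold change was 0.43 (edgeR adjusted p = 0.071), and DESeq2 with the block called it (adjusted p = 0.033). Atp7b, a copper pump gene related to Atp7a, was low and its groups overlapped, at 2.47, 2.12 and 4.73 CPM in HPC replicates 1, 2 and 3, against 0.61, 1.21 and 2.68 CPM in LPC replicates 1, 2 and 3, with a blocked log2 fold change of 1.10 (edgeR adjusted p = 0.12). Of 9 tested genes of cystine and thiol supply besides Mfsd12, of 6 of calcium and sodium-calcium exchange, of 3 of the Trpm family and of 2 of the Slc45 family, none was called by edgeR with or without the block, with blocked medians of 0.095, 0.089, 0.066 and -0.024 for the 4 lists. The blocked log2 fold changes of the most abundant were -0.21 for Slc3a2, -0.36 for Slc1a5 and 0.0055 for Slc1a4, all amino acid transporter genes, and 0.092 for Letm1 and 0.39 for Stim1, genes of mitochondrial and store-operated calcium handling. Trpm7, a widely expressed relative of Trpm1, was at 186 ± 11.4 CPM in HPC, against 181 ± 24.3 CPM in LPC, and Slc45a4, a relative of Slc45a2, at 41.7 ± 11.1 and 36.4 ± 2.04 CPM in HPC and in LPC. Trpm4, Trpm3 and Slc45a3 had blocked log2 fold changes of 0.066, 0.47 and -0.22. Trpm3 was low, at a mean of 1.98 CPM over all libraries, and its HPC to LPC ratio in the pair numbered 3 was 0.96 (blocked SE 0.29, edgeR adjusted p = 0.43). Besides Tyr, none of the other melanin enzymes and melanosome proteins, 5 in the list with Dct, Tyrp1 and Pmel the most abundant, was called, and the list's median was 0.15. Over all 80 tested genes of these lists, 9 were higher and 2 lower at an unadjusted p under 0.05 in the unblocked edgeR fit, where 5.06% of all tested genes were higher and 4.31% lower. With the block edgeR called 2 of the 80, both higher in HPC, where 2.52% of all tested genes were called and 1.43% were called as higher. DESeq2 called 3 of them without the block, namely Tyr, Mcoln3 and Atp6v1a, and 4 with it, these and Steap3, while limma-voom called none without the block and Tyr and Mcoln3 with it. All of these were higher in HPC. Of all tested genes, DESeq2 called 1.02% as higher without the block and 2.75% with it. The share for limma-voom with the block was 1.39%.

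**Figure D4:**
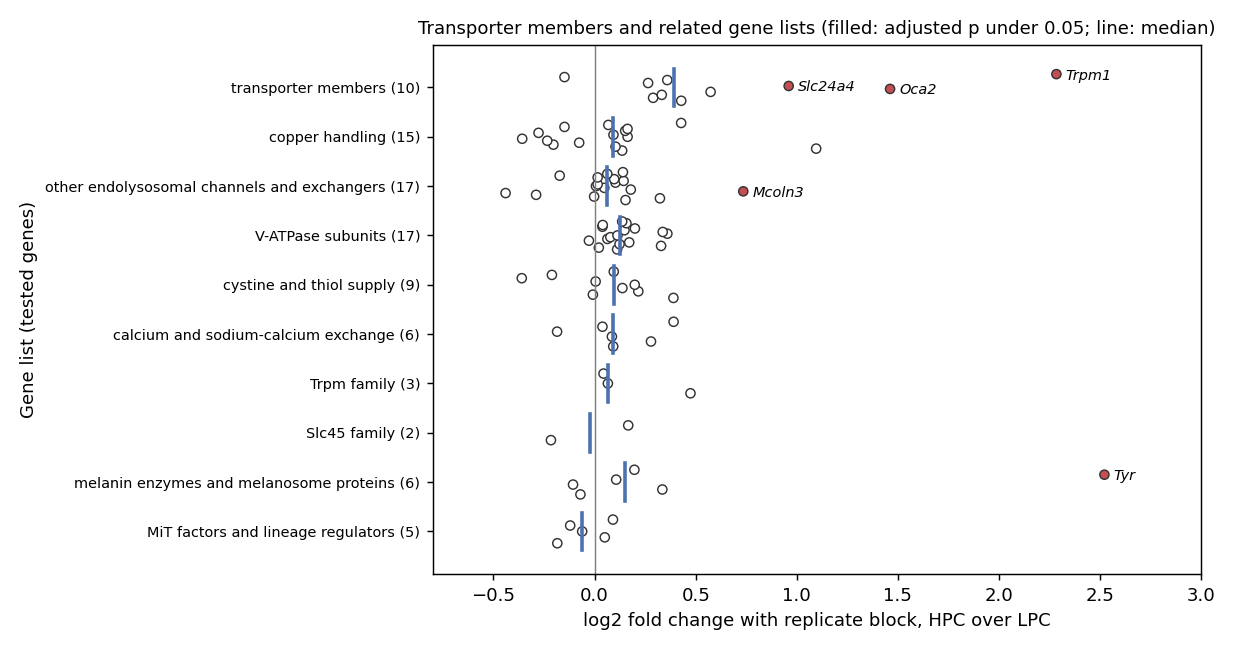
log2 fold change with the replicate block of each tested gene, HPC over LPC, for the 10 transporter genes and for the related gene lists, filled where the edgeR adjusted p was under 0.05, with a line at each list's median. Filled points are Trpm1, Oca2 and Slc24a4 among the members, with a median of 0.39, and Mcoln3 and Tyr among the related lists.

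Trpm1 (ENSMUSG00000030523) lies on chromosome 7 from 64153835 to 64269775, Oca2 (ENSMUSG00000030450) on chromosome 7 from 56239760 to 56536518 and Slc24a4 (ENSMUSG00000041771) on chromosome 12 from 102128733 to 102267091, all on the plus strand in GENCODE M21 on GRCm38. On the same build Slc45a2 lies on chromosome 15 from 11000721 to 11029233, Slc24a5 on chromosome 2 from 125068124 to 125088677, Mfsd12 on chromosome 10 from 81357491 to 81366225 and Mcoln1 on chromosome 8 from 3500457 to 3515232. Clcn7 lies on chromosome 17 from 25133391 to 25162104, Atp7a on chromosome X from 106027276 to 106124926 and Tpcn2, on the minus strand, on chromosome 7 from 145186524 to 145284011. Trpm1 has 13 coding transcripts with 11 different 3' ends there, which a count per gene does not tell apart. It overlaps Gm44719 on its own strand and Gm44722 and Mir6416 on the opposite strand, none of them at a last exon of a coding Trpm1 transcript. Of the tested genes within 1 Mb, edgeR with the block called none of 6 at Trpm1, none of 5 at Oca2 and 1 of 13 at Slc24a4. That fit called 2.52% of all tested genes, so windows with so few genes cannot show whether a difference is local. The medians of the neighbours' blocked log2 fold changes were -0.10, -0.051 and 0.089. The 1 called near Slc24a4, Fbln5, a gene of an elastic fibre protein, stood at 338 ± 39.7 CPM in HPC, against 193 ± 17.3 CPM in LPC (blocked log2 fold change 0.81, edgeR adjusted p = 0.013). Near the other members the blocked fit called 1 of 9 at Slc45a2, 3 of 62 at Mfsd12, 1 of 20 at Mcoln1, 2 of 71 at Clcn7 and none at Slc24a5, Atp7a and Tpcn2. The same share of 2.52% over all tested genes stands beside these counts. The hairpin of miR-211 lies in an intron of 12 Trpm1 transcripts, and its 5p mature form is shown because it lies within the member with the largest log2 fold change. Its seed, bases 2 to 8, is in capitals, and small RNAs were not analysed here.
mmu-miR-211-5p, chr7:64205831-64205852, plus strand: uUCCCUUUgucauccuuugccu

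Total counts ran from 18131623 to 22186743 in HPC and from 14695822 to 18810435 in LPC. The 7 melanocyte markers (Pmel, Mlana, Dct, Tyrp1, Tyr, Sox10 and Mitf) summed to 33388 to 36860 CPM in HPC and 32192 to 34636 CPM in LPC. Keratinocyte markers and the defining immune markers Ptprc and Cd3e were at 0 counts in all libraries, as were Cdh5 and Kdr of endothelium and Rpe65 of retinal pigment epithelium. The 3 markers of retinal pigment epithelium, another pigment cell type, summed to 1.71 to 2.69 CPM in HPC and 0.74 to 1.61 CPM in LPC. Most of that was Rlbp1, a retinoid-binding protein gene, at 2.58, 1.67 and 2.34 CPM in HPC replicates 1, 2 and 3, against 0.61, 0.69 and 1.61 CPM in LPC replicates 1, 2 and 3, without overlap, and its part in the results was not tested. Summed markers of immune cells were 8.16 to 15.6 CPM in HPC and 3.78 to 8.77 CPM in LPC, mostly from Cd68, a lysosomal membrane protein gene, and those of fibroblasts were 3.20 to 5.64 CPM in HPC and 6.41 to 14.1 CPM in LPC, mostly from Pdgfra. The mitochondrial share of counts was 3.21% in HPC replicate 1 and 2.07% to 2.56% in the other libraries. Without that library the log2 fold changes of Trpm1, Oca2 and Slc24a4 were 2.37, 1.36 and 1.40 (no block).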

How the data were processed

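Per the labels' protocols, the 6 libraries (3 HPC, 3 LPC) were QuantSeq 3' mRNA-Seq FWD (Lexogen), read on a NextSeq 500. The submitters' processing notes name STAR and GRCm38. How reads were counted, with which annotation, and whether strand or molecular identifiers were used is not given in the sources used here. Raw counts per gene were deposited, not normalized, and since they come from 3' ends they were not divided by transcript length.

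Genes were filtered with filterByExpr, scaled with TMM and tested with edgeR 4.0.16 (quasi-likelihood, group as the only term, R 4.3.3), adjusting p-values over all 11921 genes tested. SEs come from the F statistic. The alternatives were other scalings, no filter, DESeq2 1.42.0, limma-voom (limma 3.58.1), the replicate number as a block, and libraries left out. In the pairs numbered 1, 2 and 3, deviations from the group means correlated at 0.42, 0.35 and 0.65, above the minimum of 0.1, so the numbers were taken to pair the libraries. Of the 6 combinations of unequal number, HPC replicate 2 with LPC replicate 1 also passed that minimum (0.20), and the others ran from -0.59 to -0.048. Deviations within a group sum to 0, so the values at unequal numbers are not independent of those at equal numbers. This pairing comes from the data and not the labels, and leaves 2 residual degrees of freedom. Members and lists were chosen with earlier results of these data known. Genes of related lists were named if called with or without the block, and otherwise by abundance, up to 3 per list; a gene so named is not reported here. Promoters (9 of 10 members matched) and the miRNA are RefSeq's on GRCm38.p6. The fits were tested first on simulated counts.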

Additional observations from a re-analysis of the deposited data

How the results depend on the processing

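All 9 members with a positive log2 fold change kept that sign in each of the 19 fits run, while Tpcn2 ran from -0.22 to 0.0088 without single libraries, and was 0.0049 in the blocked fit lacking the pair numbered 2. The number of members called, 0 without the block, was 3 with it, 1 with DESeq2, 4 with DESeq2 and the block and 3 with limma-voom and the block. It was 0 to 1 without single libraries, and 0 to 8 in blocked fits lacking a pair, which have 1 residual degree of freedom and carry little weight. Over all genes, 5 were called without the block, 28 with no filter, 224 with DESeq2, 301 with the block, 500 with DESeq2 and the block and 298 with limma-voom and the block. That count ran from 0 to 43 without single libraries, and was 2947, 0 and 196 in blocked fits lacking the pair numbered 1, 2 or 3. Of the related lists, members left out, edgeR called 0 genes without the block and 2 with it, DESeq2 called 3 and, with the block, 4, and limma-voom with the block 2, while blocked fits lacking a pair called 0 to 21. Genes near 0 changed sign. Without single libraries the log2 fold change ran from -0.11 to 0.14 for Atp6v1e1, from -0.040 to 0.17 for Mitf, from -8.8e-05 to 0.085 for P2rx4, from -0.41 to 0.28 for Slc1a4, from -0.045 to 0.32 for Slc45a4, from -0.098 to 0.020 for Sox10, from -0.35 to 0.42 for Trpm4 and from -0.013 to 0.16 for Trpm7. In blocked fits lacking a pair it was -0.10 for Atp6v1e1, 0.37 for Slc1a4 and -0.011 for Pmel (pair numbered 1), -0.045 for Trpm7 and -0.029 for Mitf (pair numbered 2), and -0.0017 for P2rx4 and -0.021 for Trpm4 (pair numbered 3). Slc1a4 was at 0.0068 with limma-voom, 0.0055 with the block and 0.014 with DESeq2 and the block, against -0.096 in the fit without the block. The cause of these shifts was not tested.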
